A study of Ovis aries with 2 samples.

Results

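The barcodes described here carry transcripts of CLEC9A or XCR1, the surface receptors that define type 1 conventional dendritic cells (cDC1), and come from the dissociated anterior pituitary of Hu sheep. A barcode was a member when it held at least 500 genes and 1000 UMIs (unique molecular identifiers, counted as transcript molecules) and at least 1 UMI of CLEC9A and XCR1 together. It also had to stay below limits on genes of other cells: C1QA, C1QB and C1QC together below 0.3% of UMIs, PRL below 25%, GH below 10%, LHB below 0.3%, fewer than 2 of CD3D, CD3E and CD3G detected, and fewer than 3 of SOX2, KRT19, CRYM, CAPN6, TMEM213 and THBS4 detected. Of 29621 barcodes that passed the depth limits in both libraries, 100 were members. The measured values of these 17 genes chose the members, so they are given as a description and nothing is supported with them.

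The study profiled single cells of the gland at 3 and at 6 months of age, with 1 library per age and no treatment named in the labels. The anterior lobe was told apart by its appearance, digested with collagenase, strained, cleared of red cells and captured in Chromium droplets. The sources used here give neither the number and sex of the animals nor whether animals were pooled. Age and library cannot be told apart, no test was possible, and every interval printed is an exact 95% interval that covers counting error only.

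cDC1 are a small dendritic cell lineage that needs the cytokine receptor FLT3 and the transcription factors BATF3 and IRF8. They take up dead cells, which CLEC9A recognises by their exposed actin, and display the antigens on MHC class I to CD8 T cells, which is called cross-presentation. XCR1 binds the chemokine XCL1, which natural killer (NK) and activated CD8 T cells secrete, and in a hormone-secreting gland such as the anterior pituitary leukocytes are a minority.

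The libraries held 142479651 UMIs over 18961 barcodes at 3 months and 175239612 UMIs over 15031 barcodes at 6 months. The median of kept barcodes was 5220 and 9599 UMIs. The libraries shared 81 barcode sequences, 64 of them among kept barcodes. None was a member in both, and the barcode of 1 member was also kept in the other library. Scrublet, a doublet caller, marked 5.63% and 4.30% of kept barcodes, and among the members 0 at 3 months and 1 at 6 months.

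Members were rare in both libraries and nearly all came from the 6-month library. At 3 months 12 of 16368 kept barcodes were members, 0.0733% (interval 0.0379 to 0.128). At 6 months 88 of 13253 were, 0.664% (0.533 to 0.817). Before the limits on other genes, 22 and 131 kept barcodes held a UMI of either receptor, and the C1Q limit removed 4 and 19 of them. The members held 20 CLEC9A UMIs and 9 XCR1 UMIs at 3 months, and 397 and 202 at 6 months. At 6 months 48 members held both receptors, 19 CLEC9A alone and 21 XCR1 alone. At 3 months these numbers were 3, 8 and 1.

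Most 6-month members lay well inside the C1Q and PRL limits. Their highest C1Q share was 0.224%, against 0.551% in the nearest barcode kept out by that limit alone. For PRL the corresponding values were 21.9% and 30.9%, with a member median of 0.757%. At 3 months the highest member had 3.32% PRL and the only barcode kept out by PRL alone had 55.4%. The limits on numbers of genes left no gap at 6 months. Members held up to 1 CD3 gene and up to 2 of the SOX2 to THBS4 genes, while the nearest barcodes kept out held 2 and 3. The receptor threshold also cut close: 29 of the 88 members at 6 months and 8 of the 12 at 3 months were admitted by a single UMI.

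The label was checked with 12 other cDC1 genes that the rule did not use: BATF3, IRF8, ID2, FLT3, ZBTB46, CADM1, WDFY4, CLNK, TLR3, SNX22, RAB7B and IDO1. At 6 months the median member held 6 of them, and 68 of 88 (77.3%, 67.1 to 85.5) held at least 3. This share was 17 of 29 (58.6%) in members with 1 receptor UMI, 12 of 18 (66.7%) with 2 to 4 and 39 of 41 (95.1%) with 5 or more. Members differed in depth along the same order, with medians of 3398, 3536.5 and 13682 UMIs. Unthinned, 55.8% of C1Q-high macrophages (median 4650 UMIs) also held at least 3, close to the 58.6% of single-UMI members. At 3 months this share was 39.3% in macrophages and 33.3% in members. At least 3 genes without thinning thus did not separate these gates well. At least 6 genes were held by 51.1% of members and 2.10% of macrophages at 6 months. Other gates held none of both receptors and met the same limits on hormone and stem cell genes: T at least 2 CD3 genes, NK at least 2 of NKG7, PRF1, NCR1, KLRF1 and GNLY, B at least 2 B cell genes such as CD79A, CD79B and MS4A1, endothelial at least 2 of CDH5, VWF, TIE1 and KDR without PTPRC. After each barcode was thinned to 1000 UMIs, 43.2% of members still held at least 3 of the 12 genes. The thinned share was 7.72% in C1Q-high macrophages, 5 of 334 barcodes in the endothelial gate, 1.39% in the NK gate, and 0% in the T and B gates.

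The 3-month members fell into separate groups, and the label held for only 4 of the 12. All 4 members with at least 2 receptor UMIs held 5 or more of the 12 cDC1 genes, each had UMIs of PTPRC (CD45, carried by all leukocytes), and each had BATF3 and IRF8. The first held 3 CLEC9A UMIs and no XCR1, with 5 cDC1 genes among 3261 UMIs. The second held 2 and 1, with 8 cDC1 genes among 10311 UMIs. The third held 1 and 4, with 9 genes among 10675 UMIs, and the fourth 7 and 3, with 8 genes among 7428 UMIs.

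The other 8 members of the 3-month library, each admitted by 1 UMI, carried an endothelial profile. None held PTPRC, and each held 0 or 1 of the 12 cDC1 genes. All 8 held at least 3 of 12 endothelial genes, with a median of 9. Of the 4 members above, the first also held 3 of these genes. KDR, the main VEGF receptor of vessels, and EMCN, an endothelial sialomucin, were present in 8 of 8, and the junction proteins PECAM1 and CDH5 in 7 of 8 each. In the endothelial gate of that library, taken without regard to CLEC9A and XCR1, 8 of 1524 barcodes (0.525%, 0.227 to 1.03; median 2895 UMIs) held a receptor UMI. By the limits of the gate these 8 are the members just described, so this share is not a separate background rate. The C1Q-high macrophage gate had 2 of 1015 (0.197%; median 3894 UMIs) and the T gate 0 of 45 (interval up to 7.87%). At 6 months the endothelial gate had 5 of 339 (1.47%, 0.481 to 3.41), again all members. The macrophage gate had 11 of 1060 (1.04%, 0.519 to 1.85) and the T gate 4 of 662 (0.604%, 0.165 to 1.54). These intervals overlap those at 3 months, which for macrophages reached 0.710%. The 6-month gates were also deeper, with medians of 3411, 4655 and 2954 UMIs, beside 2350 in the T gate at 3 months.

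Endothelial genes were a minor part of the 6-month members. There 8 of 88 held at least 3 endothelial genes, 5 of them admitted by 1 UMI, and 4 of those 8 also held at least 3 cDC1 genes. The summed endothelial list made up 0.0858% of member UMIs at 6 months and 0.739% at 3 months, against 1.34% and 1.44% in the endothelial gate. No gene of that list was at 0 in the members of either library. Because of this difference in endothelial genes, comparisons between ages are given below both for all members and for members with at least 2 receptor UMIs.

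A further group of 6-month members held genes of monocytes and macrophages. At least 3 monocyte and neutrophil genes were found in 9 of 88 members. Of these, 6 held XCR1 alone, at 1 or 2 UMIs, with 5 to 7 macrophage genes other than C1Q and PTPRC in all 6. IRF8 had 1 UMI in 1 of them and none in the other 5, while BATF3 had 1 to 7 UMIs in each. They held 1 to 4 of the 12 cDC1 genes, and 4 of them met the limit of 3 genes used above. The other 3 members held 15 to 29 receptor UMIs and 9 or 10 cDC1 genes. These 9 members are among the 88 compared with macrophages below.

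**Figure D1:**
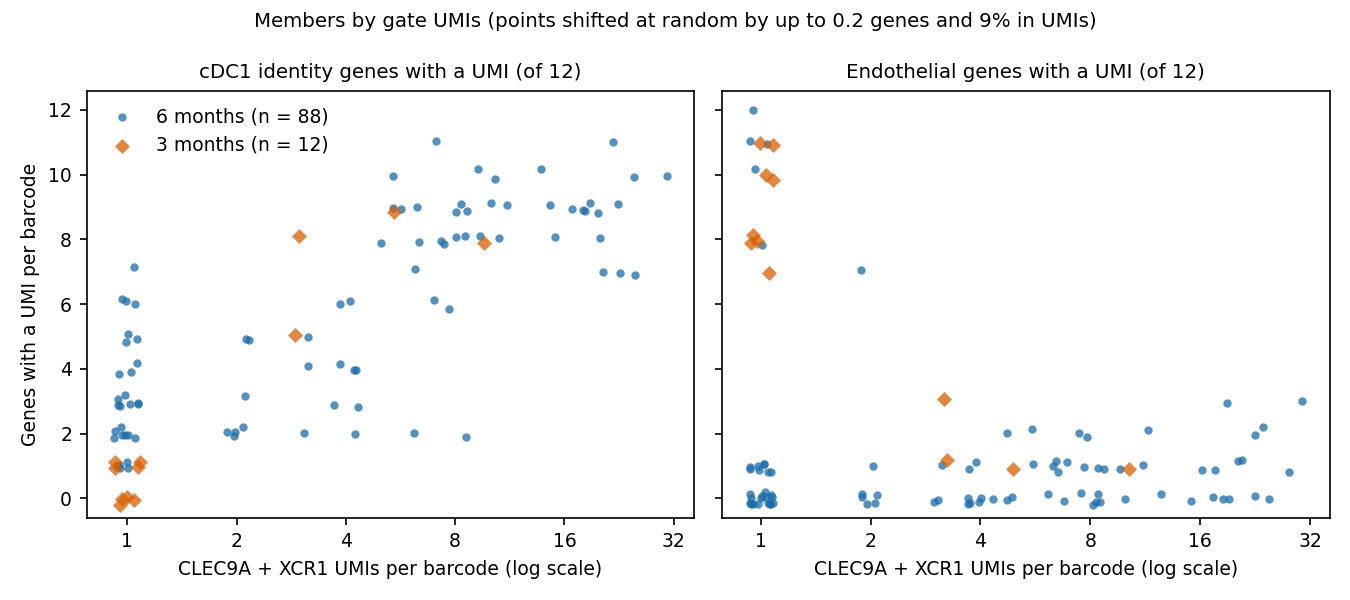
Each point is 1 member, with its CLEC9A plus XCR1 UMIs on a log axis and the number of 12 cDC1 genes (left) or 12 endothelial genes (right) with a UMI on the y axis, for 12 members at 3 months (diamonds) and 88 at 6 months (circles). The 3-month members with 1 UMI hold 0 or 1 cDC1 genes and at least 3 endothelial genes, while the 6-month members with 5 or more UMIs mostly hold at least 3 cDC1 genes.

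Shares of barcodes at a common depth of 1000 UMIs showed which cDC1 genes set the 6-month members apart from other cells of the same library. Without thinning, the gates had median depths of 6911 UMIs (members), 4650 (C1Q-high macrophages), 2948.5 (T), 3007.5 (NK), 18782 (B) and 3399.5 (endothelial). BATF3, the transcription factor cDC1 depend on, was found in 36.4% of thinned members, 5.72% of macrophages and 1.06% of T cells, and in 77.3% of members unthinned. IRF8, its partner, was found in 67.0% of members and 37.0% of macrophages. CADM1, an adhesion molecule and common cDC1 marker, was found in 33.0% and 16.5%. WDFY4, which cDC1 need for cross-presentation of cell-borne antigen, was found in 14.8% and 3.15%, and in none of the thinned T, NK, B and endothelial barcodes.

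CLNK, an adaptor of the SLP-76 family, and FLT3 were sparse in the members and rarer in the other gates. CLNK had 53 UMIs in 30 of 88 members and none in 1049 macrophages, and its thinned share was 5.68% in members and 0.304% in T cells. FLT3 had 55 UMIs in 34 members and was found in 0.572% of unthinned macrophages. RAB7B, an endosomal GTPase, was found in 52.3% of members and 10.6% of macrophages, both unthinned. ID2, which T and NK cells also use, did not separate the gates: its thinned share was 35.2% in members, 37.6% in macrophages and 44.4% in NK cells. TLR3, a double-stranded RNA sensor listed as a cDC1 gene in other species, was present in 5 of 88 members and in 16.9% of macrophages, both unthinned. ZBTB46 and SNX22 had 14 UMIs each in the members.

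**Figure D2:**
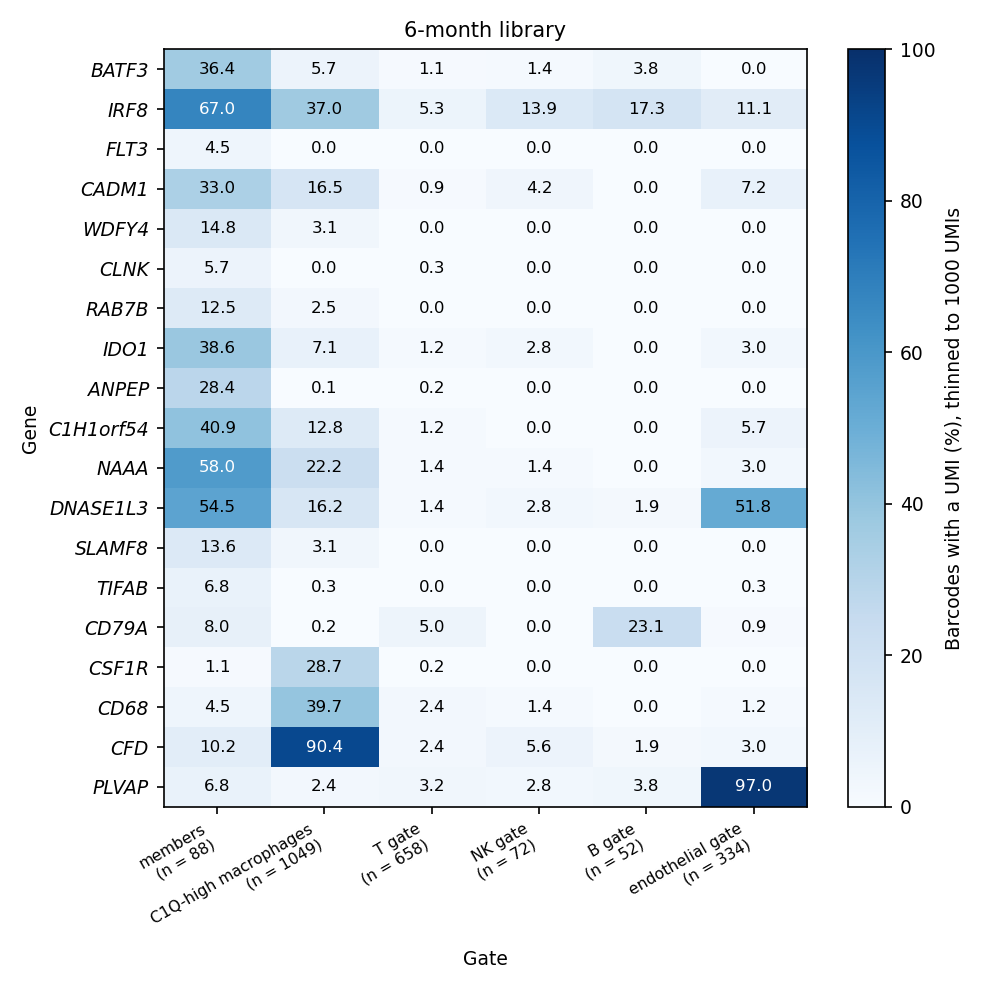
Percent of barcodes with a UMI after thinning to 1000 UMIs, for 19 genes (rows) in 6 gates of the 6-month library (columns, number of barcodes in brackets). BATF3, ANPEP, C1H1orf54 and IDO1 are highest in members, CFD and CD68 in C1Q-high macrophages, and PLVAP in the endothelial gate, while DNASE1L3 is about as frequent in endothelial barcodes as in members.

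The genes most like CLEC9A and XCR1, by the lower interval bound of the ratio of CPM (UMI counts scaled to a common total) in members to CPM in all other kept barcodes of both libraries, were CLNK, ANPEP, FLT3, RAB7B, C1H1orf54, TIFAB, BATF3 and WDFY4. The members were chosen by CLEC9A and XCR1 from these same barcodes, so this order is a description. Of these 8 genes, 5 were among the 12 checked above. ANPEP (CD13, an aminopeptidase) had 336 UMIs in 51 of 88 members and 9 UMIs in 3 of 12, all 3 with at least 2 receptor UMIs. C1H1orf54 had 488 UMIs in 67 members at 6 months and 41 UMIs in 6 at 3 months. TIFAB was found in 26 members at 6 months, with 24.8% of its UMIs in 1 barcode.

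C1Q-high macrophages served as the comparison. They hold at least 1% of their UMIs in C1QA, C1QB and C1QC, no CLEC9A or XCR1, and otherwise meet the same limits. Within the 6-month library 88 members were set against 1049 such macrophages. Counts were summed over each gate and scaled to CPM using totals without 7 pituitary hormone genes. A gene was measured when its mean CPM was worth at least 10 UMIs in the smaller sum, and called when at least 2-fold apart. Of 6654 measured genes, 702 were called higher in members (10.6%) and 1277 lower (19.2%), and the median log2 ratio was -0.09. C1Q genes were part of the rule and their difference is not a result.

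Of the 10 cDC1 genes measured in this comparison, 8 were at least 2-fold higher in members and 1 lower, with a median log2 ratio of 2.68. BATF3 was at 531 CPM in members and 60.8 CPM in macrophages, a log2 ratio of 3.13 (2.91 to 3.35). IRF8 was at 1781 and 661 CPM, a ratio of 1.43. Both were also found in macrophages, BATF3 in 23.0% and IRF8 in 74.0% of them unthinned. FLT3 was at 71.8 and 1.17 CPM, a ratio of 5.94 (4.73 to 7.45), and CLNK was at least 6.89 higher on the log2 scale, taken against a floor of 3 counts since the macrophages had none. IDO1, an enzyme that degrades tryptophan, was at 973 and 128 CPM. The lower gene was TLR3, at -2.26, and ID2 was at 0.23.

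Other genes tied to cDC1 in mammals were split. Of 16 measured, 8 were higher and 4 lower, with a median of 1.03. ANPEP stood at 439 CPM in members and 0.585 CPM in macrophages, a ratio of 9.55 (7.99 to 11.84), and DPP4 (CD26, a peptidase on dendritic cells) was at least 5.91 higher on that scale, with 27 UMIs in 23 members and none in macrophages. CST3, the protease inhibitor cystatin C, had the most UMIs of the list, with 41534 CPM in members and 5978 CPM in macrophages. C1H1orf54 had a ratio of 2.34, CPNE3 of 2.36, and NAAA, a lysosomal lipid hydrolase, of 1.76. DNASE1L3, a secreted DNase, had a ratio of 2.69, and its thinned share in the endothelial gate was 51.8%, beside 54.5% in members. The lower genes were FUCA1, CAMK2D, SYK and NFIL3, at -1.99 to -1.08. SYK, a kinase that signals below CLEC9A, had 8 UMIs in the members.

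Besides these, the genes ranked highest by the interval bound nearer to 0 were ITGA1, CD79A, TM4SF5, SEPTIN1, TIFAB and LY6E. TM4SF5, a tetraspanin-like membrane protein, was found in 40.9% of members and 1.72% of macrophages, with a log2 ratio of 5.16. LY6E was found in 71.6% and 5.24%, with a ratio of 4.55, though T cells had more of it after thinning (34.5% against 20.5% in members). ITGA1, an integrin that is common in endothelium, had a ratio of 6.04 and a thinned share of 37.1% in the endothelial gate and 10.2% in members. SEPTIN1 had a ratio of 6.33 with 24 UMIs in 16 members.

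Macrophage genes other than C1Q were low in the members. Of 15 measured, none was higher and 11 were lower, with a median of -3.37. CSF1R, the growth factor receptor of macrophages, was at 11.8 CPM in members and 340 CPM in macrophages, a ratio of -4.85. CD68 stood at -4.09 and the scavenger receptor MSR1, with 3 UMIs in members, at -5.61 (-7.89 to -4.05). The genes ranked lowest by the interval bound nearer to 0, after C1Q, were CH25H, RARRES1, PLTP, IL10, PMP22, FCGR1A, FOLR2, CFD and SCIN. CFD, complement factor D, was found in 29.5% of members and 99.0% of macrophages, with a ratio of -5.35. FOLR2, a folate receptor of tissue macrophages, stood at -6.06, and FCGR1A had 1 UMI in the members, at -7.79 (-13.09 to -5.31). IL10 had none, which places it at most at -5.68 against a floor of 3 counts.

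Conventional type 2 dendritic cell (cDC2) genes were also low. Of 6 measured, none was higher and 5 were lower: CLEC4A, FCGR2B, SIRPA, KLF4 and ZEB2. SIRPA, a receptor that marks cDC2 and macrophages, stood at -2.42, and 43.5% of its member UMIs came from 1 barcode. IRF4 was measured and not called, and had the most member UMIs of this list. ITGAX, ITGAM, FCER1A and FCGR2B had 0 UMIs in the 6-month members. Of these, ITGAX, ITGAM and FCER1A were too sparse in both gates to be measured, so their absence does not tell the gates apart. CD1A, CD1B, CD1C, CD1E, CLEC10A and CD209 were not found among the gene names. Plasmacytoid dendritic cell genes gave 2 lower of 4 measured, TLR7 and IRF7. At least 3 cDC2 genes were found in 2 of 88 members, at least 3 plasmacytoid genes in 13.

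Genes that prepare peptides for MHC class I were in part higher in members than in macrophages. Of 21 measured, 8 were called higher and 1 lower, with a median of 0.78, beside -0.09 over all measured genes. The immunoproteasome subunits PSMB9, PSMB8 and PSMB10 had ratios of 1.64, 1.54 and 1.42, and the proteasome activator PSME2 had 1.46. PSMB8 was at 1743 CPM in members and 599 CPM in macrophages. The peptide transporters TAP2 and TAP1 stood at 1.29 and 1.16, SEC61B, a translocon subunit, at 1.20, and RAB27A, a GTPase of secretory lysosomes, at 1.82. B2M, the light chain of MHC class I, was below the 2-fold limit at 0.38. The lower gene was CYBB, the NADPH oxidase subunit of phagosomes, at 86.2 and 370 CPM.

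MHC class II genes were close between both gates. CD74, the invariant chain, was at 12218 CPM in members and 10808 CPM in macrophages, and DQA at 4215 and 5376 CPM. The ratio of OVAR-DRB1 was 0.30 and that of CIITA, the class II master regulator, 0.03. Of 12 measured genes of this pathway, 2 were higher, DYA and CD9, and DYA was detected in only 7 of 88 members. CD9 was sparse too, in 11.4% of members and 3.24% of macrophages, with 7 UMIs in the 59 members with at least 2 receptor UMIs. At 3 months, where most members had an endothelial profile, CD9 was found in 58.3% of them. The 3 lower ones act on peptides in lysosomes: CTSS at -1.11, CTSH at -2.15 and IFI30, a thiol reductase, at -2.31. Related lysosomal genes of the uptake list were lower as well, with CTSD at -3.77 and CTSB at -2.57, while RAB5A of early endosomes stood at 1.85 and ACTB at 1.42. That list had 3 higher and 9 lower genes of 20 measured.

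Maturation genes of dendritic cells were mostly within 2-fold of the macrophages. Of 18 measured, 2 were higher and 3 lower, with a median of 0.38. The costimulatory receptors CD40 and CD86 were at 589 and 252 CPM in members, with ratios of 0.90 and 0.44, and CD83 was at 0.55. TRAF1, a signalling adaptor, was higher at 1.52. CD200, the other gene called higher, had 54.2% of its 24 UMIs in 1 barcode. CCL19, IL7R and PDCD1LG2 were lower. IL12B, the cytokine subunit with which cDC1 drive Th1 responses, was too sparse to be measured, with 18 UMIs in 7 members and 0.195 CPM in macrophages.

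CXCL9, a chemokine that attracts T cells through CXCR3, was among the most frequent transcripts of the 6-month members. It was found in 76 of 88 (86.4%) and at 8550 CPM, beside 46.6% and 2575 CPM in macrophages, a log2 ratio of 1.73. Thinned shares were 79.5% in members, 34.2% in macrophages, 17.4% in the endothelial gate and 4.41% in T cells. CXCL10, which binds the same receptor, was at 2318 CPM in members and 3297 CPM in macrophages, and CXCL11 was lower in members at -4.12. WARS1, a tRNA synthetase induced by interferon gamma, had a ratio of 2.29, and IL18BP, a decoy that binds IL-18, 1.26.

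Ligands and receptors of cDC1 biology were found on different cells. XCL1, the ligand of XCR1, was in 61.1% of thinned NK barcodes and 16.4% of T barcodes, beside 2.27% of members, where 67.6% of its UMIs lay in 1 barcode. FLT3LG, the ligand of FLT3, was in 9.72% of NK and 6.53% of T barcodes. IFNG, the interferon that induces CXCL9, was in 6.69% of T barcodes and had 0 UMIs in members of either library. The interferon gamma receptor genes IFNGR1 and IFNGR2 were lower in members than in macrophages, at -2.48 and -1.68. Of 16 cytokine receptors measured, 6 were lower, and IL21R was the only one called higher, at 3.42, with a thinned share of 8.05% in T cells and 4.55% in members. CX3CR1 had no UMI in members and CXCR4 stood at -1.25.

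Members had less of the type I interferon and immediate early genes than the macrophages. Of 14 interferon genes measured, none was higher and 9 were lower, with a median of -1.98. IFI6 was at 53.5 and 1045 CPM and MX2 at 17.0 and 251 CPM, whereas ISG15 was at 802 and 774 CPM. Of 22 immediate early and dissociation genes, 18 were lower and none higher, with a median of -1.38. FOS was at 538 and 4226 CPM, DUSP1 at 518 and 3199 CPM. With the 8 members that held at least 3 endothelial genes left out, these list medians were -2.08 and -1.35. Innate sensors gave 5 lower and none higher of 13 measured, among them TLR4, TLR8, MYD88, CGAS and STING1, which had 1 UMI in the members.

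At least 3 of 24 cell cycle genes were found in 55 of 88 members, and the median member held 3. That median was 2 in members with 1 receptor UMI and 4 in the deeper ones with 5 or more. This count was not made in other gates, and H2AZ1, TUBB, STMN1 and HMGB2 had the most UMIs of the list. The summed list made up 0.186% of UMIs in members, 0.133% in macrophages and 0.233% in the T gate. Of 16 measured genes, 7 were higher than in macrophages and 1 lower, with a median of 0.88. BIRC5, a mitotic survival factor, was found in 10 of 88 members and 0.763% of macrophages. TYMS had a ratio of 1.99 and MCM5 of 1.85. MKI67 was found in 5 members, with 57.9% of its UMIs in 1 barcode, and either MKI67 or TOP2A in 6. Of these 6, 3 had PRL shares of 21.9%, 8.77% and 7.25%, beside the member median of 0.757%, and 1 held 11 of the 12 endothelial genes. PCNA, the lower gene, stood at -1.18. The 6 members with MKI67 or TOP2A had a median of 16243 UMIs, against 6352.5 in the other 82, and the part of depth and of PRL in their detection was not tested.

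**Figure D3:**
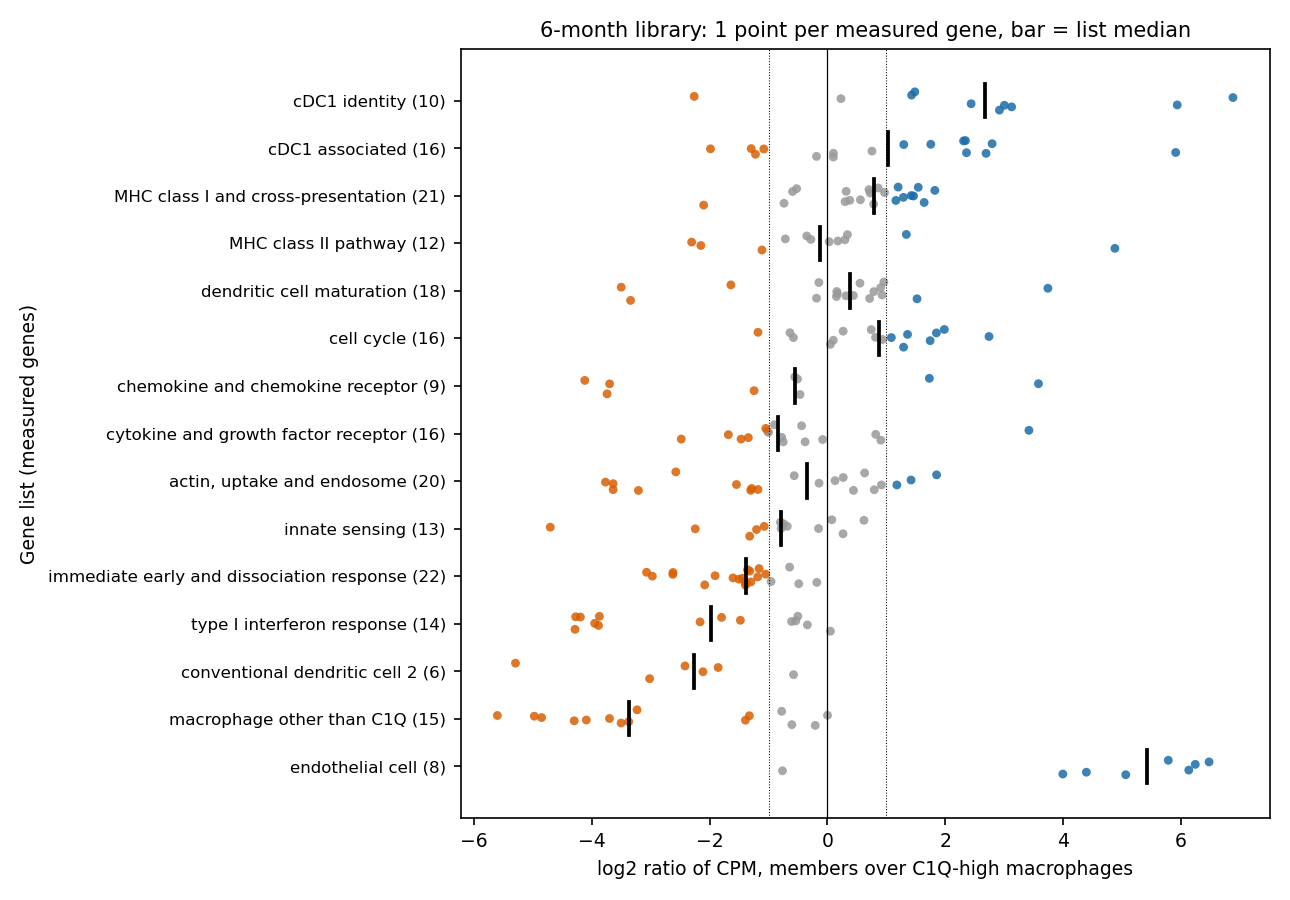
Each point is 1 measured gene, placed by the log2 ratio of CPM in members over C1Q-high macrophages of the 6-month library, for 15 gene lists with the number of measured genes in brackets; bars mark list medians and dotted lines the 2-fold limits (blue higher, orange lower). The cDC1 list centres at 2.68, class I presentation at 0.78, macrophage genes at -3.37 and type I interferon genes at -1.98.

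Genes of other cell types were present in part of the 6-month members. The endothelial list gave 7 higher genes of 8 measured against the macrophages, with a median of 5.43. PLVAP, a protein of fenestrated capillaries, was found in 10 of 88 members with 258 UMIs, and PECAM1 in 36 of 88, beside 46.3% of macrophages. With the 8 members that hold at least 3 endothelial genes left out, 593 genes were called higher and 1289 lower, beside 702 and 1277 with them. The summed endothelial list made up 0.0413% of macrophage UMIs, and its part in single genes was not tested.

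CD79A, a signalling chain of the B cell receptor, was found without CD79B, MS4A1 and PAX5. It had 64 UMIs in 30 of 88 members (34.1%) at 6 months, and 3 UMIs in 2 of the 4 members with at least 2 receptor UMIs at 3 months. Its log2 ratio over macrophages was 5.57 (4.56 to 6.77). CD79B, its partner chain, and MS4A1 (CD20) had 0 UMIs in all members of both libraries, as did PAX5. The thinned share of CD79A was 7.95% in members, 23.1% in the B gate, which CD79A helped to define, 5.02% in T cells and 0.191% in macrophages. Members with CD79A were deeper, with a median of 11919 UMIs against 4964, and held a median of 8 cDC1 genes against 4. The highest CD79A counts, 11 and 7 UMIs, lay in members admitted by 1 XCR1 UMI. Those members held 4 and 3 cDC1 genes and no BATF3, and the first also held 5 plasmacytoid and 3 cDC2 genes. JCHAIN, a plasma cell gene, had 535 UMIs in 4 members, of which 99.4% lay in 1 barcode. That barcode held CD79A and 4 of the 12 B and plasma cell genes in all, with 2 cDC1 genes and no PTPRC. Of the 30 members with CD79A, 4 held at least 1 other gene of that list.

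CCR7, the receptor that guides mature dendritic cells to lymph nodes, was found in a subset. At 6 months 13 of 88 members held it, all of them with at least 2 receptor UMIs and all with at least 3 cDC1 genes. They had a median of 17159 UMIs, against 5354 in the other 75, and the part of depth was not tested. Macrophages had CCR7 at 77.6 CPM and members at 148 CPM, a ratio of 0.93. LAMP3 was found in 9 members and FSCN1, an actin bundler of mature dendritic cells, in 55. At 3 months CCR7 was in 0 of the 4 members with at least 2 receptor UMIs, with an interval that reaches 60.2%, and in none of the 8 others.

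The cDC1 genes were most frequent in members with both receptors. At 6 months 42 of 48 (87.5%, 74.8 to 95.3) held at least 3 of the 12 genes, beside 14 of 19 (73.7%, 48.8 to 90.9) with CLEC9A alone and 12 of 21 (57.1%, 34.0 to 78.2) with XCR1 alone. Median depths were 11454.5, 3656 and 3398 UMIs, in the same order as these shares. PTPRC was found in 52 of 88 members, and at least 3 of 11 leukocyte genes in 78. Outside the rule, 76 kept barcodes at 6 months and 10 at 3 months held at least 6 of the 12 cDC1 genes without a UMI of either receptor. In macrophages that number of genes was reached by 2.10% and 0.592%.

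The same comparison with macrophages at 3 months covered 797 genes, of which 186 (23.3%) were higher in the 12 members and 177 (22.2%) lower. The members there include the 8 barcodes with an endothelial profile, and 5 of 6 measured endothelial genes were higher, with a median of 4.79. IRF8 and CADM1 were among the higher genes and CSF1R and CD68 among the lower ones, in the same directions as at 6 months. ID2 was lower there, at -1.06.

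Between the ages, all 88 members at 6 months were first set against all 12 at 3 months. Of 811 measured genes, 107 were at least 2-fold higher at 6 months (13.2%) and 149 lower (18.4%), with a median log2 ratio of 0.03. Scaling by edgeR's TMM moved that median to 0.69 and the calls to 354 higher and 81 lower, so directions near the limit depend on the scaling. Among the lowest genes were C15H11orf96, CLEC3B, TM4SF18, EMCN, GNG11, S100A16 and CD34. All 6 measured endothelial genes were lower, with a median of -3.38. PLVAP had 211 UMIs in the 12 members at 3 months and 258 UMIs in the 88 at 6 months. Of the 12 members at 3 months, 9 held PLVAP and only 1 of these was among the 4 with at least 2 receptor UMIs. TM4SF18, EMCN and CD34 were found in 8 of 8 single-UMI members at 3 months and in 0 of the other 4.

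With the single-UMI members left out, 59 members at 6 months stood against 4 at 3 months, with 640669 and 31675 UMIs and median depths of 10384 and 8869.5 UMIs. Then 389 genes were measured, 44 higher (11.3%) and 55 lower (14.1%), with a median of -0.00, and no endothelial gene was measured. At this depth most genes could not be compared, and each value rests on 4 barcodes of 1 library. The values below are from these 63 members unless stated otherwise.

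The largest difference was in CXCL9. It had 6131 UMIs in 59 of 59 members at 6 months and 3 UMIs in 1 of 4 at 3 months, a log2 ratio of 6.66 (5.12 to 8.94), or 7.43 (5.88 to 9.70) over all members. The 3 UMIs lay in the shallowest of the 4 barcodes, which also held 3 endothelial genes, and the other 3 barcodes had none. CXCL10 was found in 50 of 59 and 3 of 4, with a ratio of 4.70 (3.15 to 6.98). IDO1 was found in 46 of 59 and 0 of 4, at least 3.57 higher on the log2 scale against a floor of 3 counts. Macrophages of the same libraries, with 1049 and 1013 barcodes, had ratios of 5.61 for CXCL9, 2.93 for CXCL10 and 4.97 for IDO1. In those macrophages 6.83% of 11067 measured genes were higher and 5.85% lower.

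WARS1 and TAP1 were also called higher at 6 months. WARS1, which interferon gamma induces, was found in 54 of 59 members and had 1 UMI at 3 months, a ratio of 4.76 (2.28 to 10.07), beside 2.71 in macrophages. TAP1 stood at 2.01 (0.88 to 3.47), beside 1.90 in macrophages. IRF1, a transcription factor of that response, was found in 43 of 59 and 0 of 4, and SOCS1, its feedback inhibitor, in 40 of 59 and 0 of 4. Neither had enough counts to be measured in these 63 members. Over all members their ratios were 3.18 (1.82 to 5.06) and 3.61 (1.74 to 6.66), and the 3-month UMIs of both lay in single-UMI members. Other genes that this interferon is known to induce were not called: PSMB9 stood at 0.88, PSME2 at 0.69, B2M at 0.15 and CD74 at -0.13. CIITA, at 0.13 (-1.48 to 2.44), was too sparse to be measured. No list of interferon gamma targets was tested, and the part of this interferon in the differences between libraries was not tested.

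Some cytokine genes were higher in members but not in macrophages. IL18BP had a ratio of 4.59 in members and -0.94 in macrophages, IL1A 4.57 and -0.26, and CXCL8 4.42 and -2.01. Each had 1 UMI in 1 barcode at 3 months, and the member intervals reach from 2.11 to 9.90, from 2.09 to 9.88 and from 1.93 to 9.72. CXCL8 was found in 23 of all 88 members, with 25.6% of its UMIs in 1 barcode. APOBEC3A, a cytidine deaminase, had 527 UMIs in 20 of 88 members and none at 3 months. Only 225 of these UMIs lay in the 59 members with at least 2 receptor UMIs, and there it was too sparse to be measured. TNF and the actin bundler LCP1 were higher over all members, at 3.88 (2.01 to 6.93) and 3.69 (1.83 to 6.74), from 2 UMIs each at 3 months. Whether members and macrophages differ in these ratios was not tested.

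**Figure D4:**
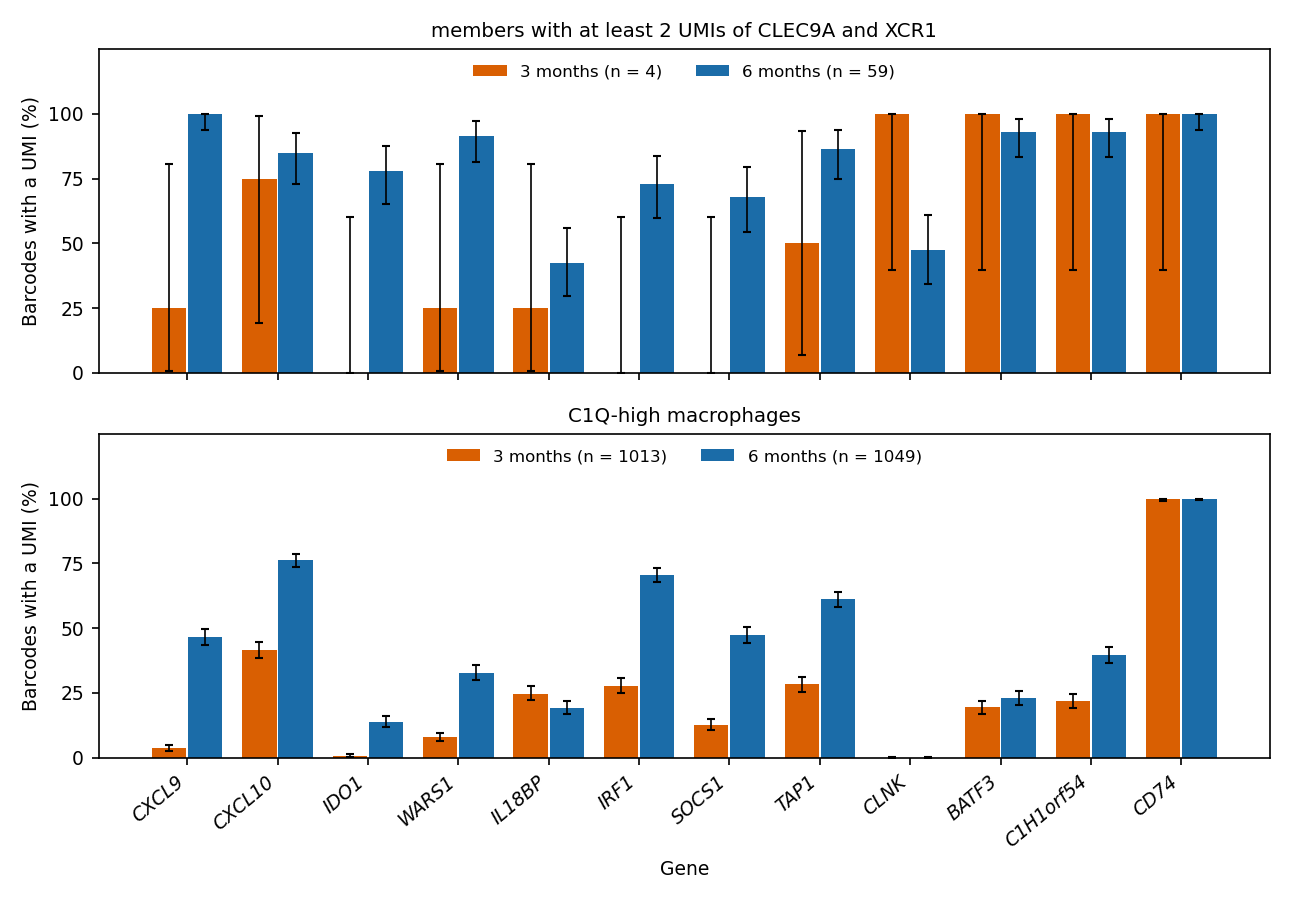
Percent of barcodes with a UMI for 12 genes, at 3 months (orange) and 6 months (blue), in members with at least 2 receptor UMIs (top; 4 and 59 barcodes) and in C1Q-high macrophages (bottom; 1013 and 1049); bars are unthinned shares and error lines exact 95% intervals. CXCL9, IDO1, IRF1 and SOCS1 are found in most 6-month members and in 1 or 0 of the 4 at 3 months, where the intervals are wide.

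The cDC1 genes themselves were closer between ages once the single-UMI members were left out. BATF3 was found in 55 of 59 and 4 of 4 members, with a ratio of 0.50 (-0.29 to 1.42), and IRF8 in 54 of 59 and 4 of 4, with 0.46 (0.04 to 0.92). CADM1 stood at -0.28 and RAB7B at -0.81. CLNK was found in 28 of 59 and 4 of 4. Over all members BATF3 and IRF8 had been called higher, at 1.30 and 1.22, where the 8 single-UMI members held neither gene. Of 6 cDC1 genes measured, IDO1 and ID2 were called higher and none lower, with a median of 0.48.

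MHC genes varied less than CXCL9 and IDO1. CD74 had a ratio of -0.13, DQA of -0.22 and B2M of 0.15, and over all members these were 0.70, 0.59 and 0.25. CTSS had a ratio of 1.84. Of 7 class I pathway genes measured, TAP1 and SEC61B were higher. The maturation list gave 4 higher genes of 6 over all members (CD40, TRAF1, FSCN1 and BIRC3), but in these 63 members CD40 alone of 4, at 1.05, with a list median of 0.04. CST3 was at -0.12, or 0.67 over all members, while macrophages had 1.89 for it.

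Immediate early genes were lower at 6 months. Of 15 measured in these 63 members, 9 were lower and 1, the heat shock gene HSPA1A, higher, with a median of -1.06. HSPA1A, at 1.01, does not stand for heat shock genes in general. Others outside this list were called lower, among them HSPA6 at -2.03, HSPB1 at -1.81, HSPH1 at -1.64 and HSP90AA1 at -1.17. FOS stood at -3.34 (-3.62 to -3.05), FOSB at -2.73, KLF2 at -2.73 and JUN at -2.59. Macrophages had -1.44 for FOS, -1.14 for FOSB, -2.36 for KLF2 and -1.19 for JUN. LY6E was lower as well, at -2.51, or -1.56 over all members. Of 5 leukocyte genes measured, PTPRC was lower, at -1.11, and none was higher, with a list median of 0.41. Over all members PTPRC stood at -0.23, and 3 of 6 leukocyte genes were higher and none lower, with a median of 0.75. AIF1, the only macrophage gene measured in these 63 members, was at -1.01, beside -0.10 over all members.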

How the data were processed

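Single-cell droplet libraries of sheep anterior pituitary, 1 at 3 months and 1 at 6 months, were analysed from raw UMI counts per gene and barcode that the authors deposited as matrices. They were made with Cell Ranger, version 5.0.0 per the submitters' processing notes and 5.0.1 per the file headers. No source used here names the genome build or gene models. Of 23141 genes listed, 22726 identifiers matched a RefSeq table of ARS-UI_Ramb_v3.0, which gave symbols to 439 placeholder names. 6561 genes kept a placeholder name.

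Members were chosen by the rule given in the opening, and other gates by marker genes. UMIs were summed over each gate and scaled to CPM on totals without 7 hormone genes (numpy 2.4.6, scipy 1.17.1 and pandas 2.3.3 in Python 3.11.15; figures with matplotlib 3.10.9). With 1 library per age there was no test. Ratios have exact conditional binomial intervals and shares exact Clopper-Pearson intervals, at 95%. UMIs within a barcode and barcodes within a library share their source, so the intervals leave out variation between animals. A fold against 0 UMIs used a floor of 3 counts per sum. For shares at a common depth each barcode was thinned to 1000 UMIs with a fixed seed. Doublets were marked with Scrublet in scanpy 1.11.5 and kept in the main analysis.

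The members and the 25 gene lists (420 entries, 380 found) were chosen with earlier results of these data known. Named genes were the cDC1 list, up to 12 genes per direction ranked by the interval bound nearer to 0 and found in at least 10% of the gate where they were higher, the 10 genes most like the receptors with at least 20 UMIs, and from each list those with the most UMIs or the extreme ratios. A few further genes were chosen after their values were seen, and some genes that the rule names are not reported here. The counting was tested on simulated counts for 23141 genes: of 100 genes made 4-fold higher in the 6-month comparison with macrophages 100% were called, and of unchanged genes 1.134%. In the comparison of ages over all 88 and 12 members 5.857% of unchanged genes were called. The comparison of the 59 and 4 members with at least 2 receptor UMIs was not simulated. The changed genes were picked among those expected at 20 UMIs or more in the smaller sum. Simulated counts varied by counting error alone, so these shares do not cover differences between barcodes or animals. Alternatives changed the receptor UMI minimum, depth filter, C1Q and PRL limits, doublets, a PTPRC requirement, scaling (all UMIs, TMM in edgeR 4.0.16 under R 4.3.3, means per cell), free RNA, low counts and deep barcodes.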

Additional observations from a re-analysis of the deposited data

How the results depend on the processing

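No paired analysis was possible because each age is 1 library, and for the same reason no replicate could be left out. The share of members at 3 months was 0.0244% with at least 2 receptor UMIs or with PTPRC required and 0.0183% without members holding 3 endothelial genes. At 6 months it was 0.445% with 2 receptor UMIs and 0.392% with PTPRC. The share with at least 3 of 12 cDC1 genes became 100% at 3 months under those 3 settings. At 6 months it was 86.4% with 2 receptor UMIs, 87.3% with 1000 genes and 2000 UMIs, 90.4% with PTPRC and 43.2% after thinning. Members against macrophages gave 372 higher and 604 lower genes with a minimum of 30 UMIs, and 1619 and 2446 with none. Between ages the higher and lower counts were 44 and 55 with 2 receptor UMIs, 48 and 50 with PTPRC, 34 and 60 without endothelial genes, 354 and 81 under TMM, 31 and 35 with a minimum of 30 UMIs, and 617 and 2188 with none. The maturation list's median between ages turned to -0.074 with PTPRC required and -0.22 without endothelial genes. The ratio of PLVAP turned to 0.13 with 2 receptor UMIs, from 44 and 2 UMIs. The settings on endothelial and on B and plasma cell genes were chosen after seeing the data. Of 1854 values recomputed under 16 settings, 1632 stayed within their margin, 219 moved beyond it and these 3 were counted as turned. A turn was counted only for called genes and for list medians at least 2-fold from 0. Smaller values also changed sign without being counted. The median of MHC class II genes between ages was 0.73 over all members and -0.080 with 2 receptor UMIs. Apart from settings that change which members or genes enter, the cause was not tested. The 31675 UMIs of the 4 members at 3 months limit every comparison of ages.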

Other observations

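Genes of other leukocytes were found in part of the 6-month members. At least 3 T cell or at least 3 NK cell genes were found in 4 members, each with 7 to 9 of the 12 cDC1 genes, and 2 of these held 5 or 6 T cell genes and 6 or 7 NK cell genes. LYZ, the antibacterial enzyme lysozyme, was found in 24 of 88 members and 2.10% of C1Q-high macrophages, a log2 ratio of 3.17. CD8B, a chain of the T cell coreceptor, was found in 27 members, 22 of them with at least 2 receptor UMIs, and its thinned share was 4.55% in members and 22.8% in T cells. CD5 was found in 21 members. CD2, an adhesion receptor, had 1 UMI in the members and was found in 50.4% of the macrophages. GNLY, a cytotoxic granule protein, had 76.6% of its member UMIs in 1 barcode. VCAN was found in 7 members, 5 of them admitted by 1 receptor UMI.

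Receptors for hormones were sparse in the members. NR3C1, the glucocorticoid receptor, was found in 29 of 88 members and 18.5% of macrophages, and its ratio of 0.63 was below the 2-fold limit. NR4A2 was lower at -1.73, and PPARG had no UMI in members, which places it at most at -2.81. ESR1 had 1 UMI, GHR 2, and PGR and THRB none. Of 7 genes of this list measured, 2 were lower and none higher, with a median of -0.77.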
